A study of Homo sapiens with 35 samples.

Results

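Depletion of INTS13 was compared directly with depletion of HDGF in HEK293T cells with glucose, using 2 libraries of each out of 35 libraries in the series. The 4 libraries were taken by their labels as the INTS13 and HDGF siPOOL samples that carry replicate numbers 3 and 4, and no control library entered the difference. The series sequenced ribosomal RNA-depleted total RNA after depletion of INTS13 or of proteins studied with it, and the direct comparison asks where loss of HDGF and loss of INTS13 leave different transcript levels. A siPOOL is a mixture of many small interfering RNAs that target the same transcript. All groups used here received 5 nM siPOOL for 72 h: INTS13 siPOOL (n = 2), HDGF siPOOL (n = 2) and a non-targeting siPOOL as control (n = 4, libraries 3a, 3b, 4a and 4b). INTS13-depleted (n = 2), HDGF-depleted (n = 2) and control cells (n = 4) kept without glucose for 24 h were the starved groups. HEK293T is a single immortalised line of embryonic kidney origin that carries the SV40 large T antigen, a viral protein that binds p53. Whether libraries of a group came from separate cultures is not in the labels, and the spread behind each p-value may therefore be technical.

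Integrator is a complex that binds RNA polymerase II near the start of genes, cleaves the nascent RNA and ends transcription, and it also forms the 3' ends of small nuclear RNAs. INTS13 is a subunit that forms a module of the complex with INTS10 and INTS14. HDGF is the founding member of a family of chromatin proteins with a PWWP domain, which reads methylated histone H3, and it was first described as a growth factor.

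The 4 libraries held between 22.6 and 26.5 M counts, and the starved INTS13 and HDGF libraries between 16.8 and 25.9 M. Across genes, the chi-square statistic divided by its degrees of freedom was 3.1 between the INTS13 libraries and 5.16 between the HDGF libraries, against 20.4 and 22.2 between INTS13 and HDGF libraries of the same number. Control libraries of the same number differed more than those of a depletion, at 10.3 (3a and 3b) and 11.1 (4a and 4b). The starved INTS13 libraries gave 4.3 and the starved HDGF libraries 5.91. All 10 markers listed for HEK293 cells had a mean of at least 1 CPM (counts relative to library size, scaled by TMM) in both groups, and they summed to 810 to 858 CPM in INTS13 and 797 to 826 CPM in HDGF libraries. Among the markers described here KRT8, DSG2 and NEFM were called higher and VIM lower in INTS13 libraries. Immune markers summed to at most 2.6 CPM, endothelial, hepatocyte and kidney tubule markers to at most 0.448 CPM, and fibroblast markers to between 4.7 and 9.6 CPM.

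Both siPOOL targets separated the groups. On hg38 the INTS13 gene (ENSG00000064102.15) lies on the minus strand at chr12:26905181-26938326 and the HDGF gene (ENSG00000143321.19) on the minus strand at chr1:156742109-156766925. INTS13 stood at 14.2 and 14.2 CPM in the INTS13-depleted libraries and at 93.2 and 91.0 CPM in the HDGF-depleted libraries, beside 102 ± 3.73 CPM (SD, n = 4) in control. HDGF stood at 471 and 470 CPM in the INTS13-depleted libraries and at 42.7 and 49.6 CPM in the HDGF-depleted libraries, beside 552 ± 22.9 CPM in control. Neither gene's libraries overlapped between the depletions, and each group was low in its own target. Against control, HDGF was also called lower after INTS13 depletion by a small amount (log2 -0.23, adjusted p = 0.048). INTS13 was not called after HDGF depletion (-0.15, adjusted p = 0.574). The log2 difference, INTS13 minus HDGF depletion, was -2.70 ± 0.13 (SE) for INTS13 (adjusted p = 2.83e-13) and 3.35 ± 0.10 for HDGF (adjusted p = 7.33e-19). HDGF overlaps PRCC and the counting of strand is not stated, so some of its counts may belong to that gene.

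Across the transcriptome 1586 of 19275 tested genes (8.23%) were called, meaning an edgeR adjusted p under 0.05 over all genes tested, and 3985 had an unadjusted p under 0.05. The INTS13-depleted cells had higher levels of 942 genes (4.89%) and lower levels of 644 (3.34%), and 328 and 78 of these differed at least 2-fold. The count of each gene list below is to be read beside these shares, and no list was tested as a set. Genes higher after INTS13 depletion were of lower abundance: their median was 3.71 log2 CPM among protein-coding genes, against 5.45 for those lower and 4.84 for all protein-coding genes tested. The libraries of the groups did not overlap in any of the 1586 called genes, which was also true of 61.6% of all genes tested. Where called genes are said below not to overlap, this describes their values and adds no support to the call. For 12751 genes (66.2%) the 95% interval of the difference lay within 2-fold, and among protein-coding genes with a mean of at least 4 log2 CPM this held for 8248 of 8492 (97.1%). The other 5786 genes that were not called had intervals reaching past 2-fold, so a difference of that size is not excluded there. Below, fits of only libraries numbered 3 and 4 leave out the ZMYND8 siPOOL libraries and their own controls, which also carry those numbers. The number of calls was 596 without INTS13 library 3, 765 without INTS13 library 4, 714 without HDGF library 3 and 608 without HDGF library 4, and 4322 when only libraries numbered 3 and 4 were fitted. With at least 1 of the 4 libraries left out the calls of ACTA2, AMOTL2, ATF5, CANX, CCN1, CCN2, CDC20, DSG2, EDEM1, H3C13, HDGFL3, HES4, HEXA, HOXC11, INKA2-AS1, INTS6L, INTS8, JAG1, JDP2, LGR5, LINC01876, MCL1, NEFM, NRARP, PPP1R15A, TYMSOS, VIM and XRN2 were lost, and the other genes named here as called with glucose kept theirs.

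**Figure D1:**
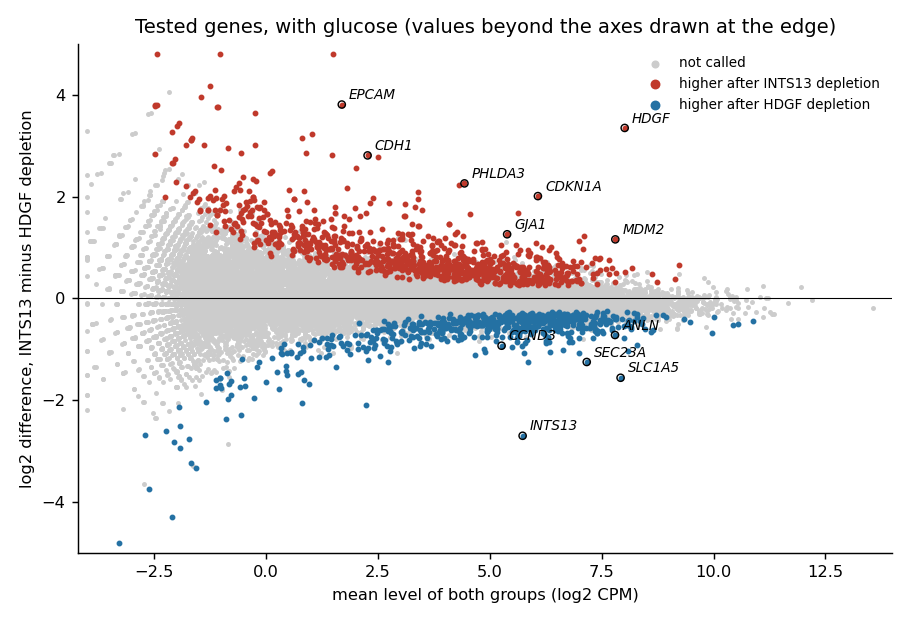
Log2 difference between INTS13 and HDGF depletion (vertical) against the mean level of both groups in log2 CPM (horizontal) for the genes tested, 1 point per gene, with called genes in colour and some named genes circled. The siPOOL targets lie at 3.35 and -2.70, and points on both sides of 0 spread further from it at low levels. Values beyond the axes are drawn at the edge.

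Many targets of p53 were higher after INTS13 than after HDGF depletion. p53 is a transcription factor that halts the cell cycle or starts apoptosis under stress. Of 34 listed targets 20 were higher, 0 were lower and 14 did not pass, with a median log2 difference of 0.64 against 0.00 over all genes tested. CDKN1A (chr6:36676460-36687337), which encodes the cyclin-dependent kinase inhibitor p21, stood at 109 and 107 CPM in INTS13-depleted and 27.5 and 26 CPM in HDGF-depleted libraries, beside 17.8 ± 1.99 CPM in control. Every INTS13-depleted library was far above every HDGF-depleted library, a log2 difference of 2.01 ± 0.17 (adjusted p = 1.17e-08). PHLDA3, which encodes an inhibitor of AKT, stood at 36.7 and 34.6 CPM against 8.82 and 6.11 CPM, beside 6.72 ± 1.41 CPM in control. The difference for PHLDA3 was 2.26 ± 0.23 (adjusted p = 1.97e-07). GLS2, a mitochondrial glutaminase gene known as a p53 target but not on the list, stood at 7.75 and 9.01 CPM against 2.49 and 1.77 CPM (1.97 ± 0.23, adjusted p = 1.77e-06). With any 1 of the 4 libraries left out, 15 or 16 of the 34 targets were called higher.

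MDM2 (chr12:68808177-68850686), the ubiquitin ligase that degrades p53 and is itself a p53 target, lay on opposite sides of control in the depletions. It stood at 320 and 298 CPM in INTS13-depleted libraries, 140 and 136 CPM in HDGF-depleted libraries and 206 ± 3.55 CPM in control. The INTS13 libraries were the highest of these groups and the HDGF libraries the lowest, without overlap. The direct log2 difference was 1.16 ± 0.11 (adjusted p = 9.03e-08), and the differences from the shared controls were 0.59 after INTS13 depletion (adjusted p = 7.31e-05) and -0.58 after HDGF depletion (adjusted p = 0.000437). MDM2 overlaps CPM, the carboxypeptidase M gene, on the opposite strand. MIR34AHG, the host transcript of the p53-induced microRNA miR-34a, stood at 30.5 and 35.3 CPM against 7.02 and 7.1 CPM, a difference of 2.22 ± 0.24 (adjusted p = 6.15e-07).

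Among death receptor and BCL2 family genes 6 of 25 were higher after INTS13 depletion, 1 was lower and 18 did not pass (median log2 difference 0.08). FAS (chr10:88990531-89017059), a death receptor gene, stood at 27.1 and 25.3 CPM in INTS13-depleted, 11.5 and 10.3 CPM in HDGF-depleted and 5.56 ± 0.253 CPM in control libraries. Both depletions were above control and INTS13 depletion was above HDGF depletion, with a direct log2 difference of 1.27 ± 0.13 (adjusted p = 3.62e-07). TNFRSF10B, the gene of the TRAIL receptor DR5, had the same order at 132 and 136, 87.3 and 88.2, and 52.5 ± 2.47 CPM (0.61 ± 0.08, adjusted p = 2e-05). CASP10, an initiator caspase gene, stood at 3.06 and 3.51 CPM against 1.16 and 1.2 CPM, with 2.36 ± 0.356 CPM in control (1.47 ± 0.21, adjusted p = 4.41e-05). Here the control lay between the depletions. MCL1, an anti-apoptotic family member, was the gene lower after INTS13 depletion (-0.30 ± 0.09, adjusted p = 0.0412), a call lost without any 1 of the 4 libraries. FAS overlaps ACTA2, whose difference was 1.30 ± 0.26.

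**Figure D2:**
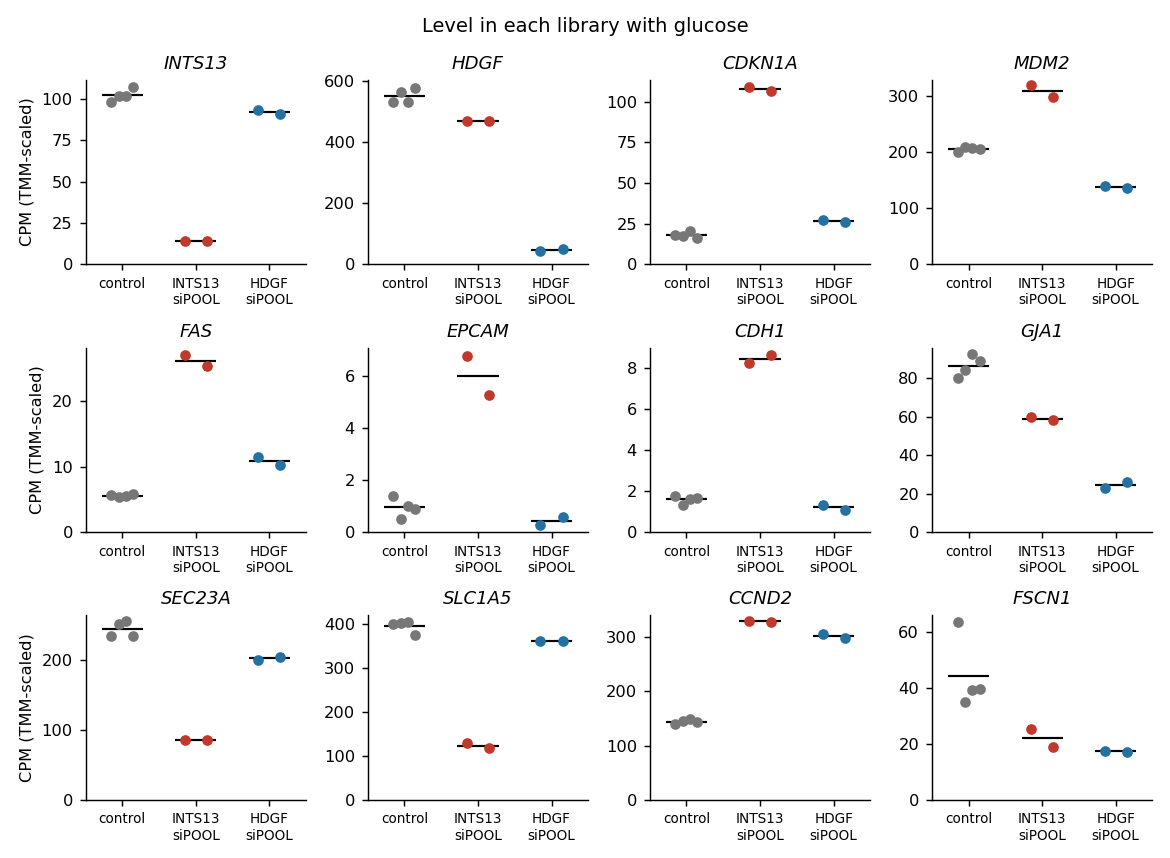
Level of 12 genes in each library with glucose, in TMM-scaled CPM on axes that start at 0, with 4 control, 2 INTS13-depleted and 2 HDGF-depleted libraries as points and group means as bars. CDKN1A, FAS, MDM2, EPCAM and CDH1 were highest after INTS13 depletion, SEC23A and SLC1A5 lowest there, GJA1 lowest after HDGF depletion, and CCND2 lay above control and FSCN1 below the control mean in both.

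Some epithelial genes were also higher after INTS13 depletion. Of 22 tested members of a list of junction and epithelial identity genes 8 were higher, 0 were lower and 14 did not pass, with a median log2 difference of 0.64. EPCAM (chr2:47345158-47387601), an epithelial adhesion molecule gene, stood at 6.78 and 5.26 CPM in INTS13-depleted and 0.281 and 0.578 CPM in HDGF-depleted libraries, beside 0.946 ± 0.363 CPM in control. The lowest INTS13 library was well above the highest HDGF library, a difference of 3.81 ± 0.37 (adjusted p = 1.22e-07). CDH1 (chr16:68737292-68835541), which encodes E-cadherin of adherens junctions, stood at 8.24 and 8.6 CPM against 1.32 and 1.07 CPM, beside 1.59 ± 0.183 CPM in control (2.81 ± 0.49, adjusted p = 0.000472). KRT8, a simple epithelial keratin gene, stood at 18.0 and 15.7 CPM against 3.53 and 4.37 CPM, a difference of 2.10 ± 0.19 (adjusted p = 3.87e-08), and overlaps KRT18. SPINT2, a gene of a serine protease inhibitor of epithelia that was not on the list, stood at 77.7 and 72.2 CPM against 24.1 and 22.8 CPM (1.68 ± 0.16, adjusted p = 1.6e-07). RBM47, an RNA-binding protein gene, stood at 13.7 and 13.4 CPM against 3.41 and 4.04 CPM, with the control between at 7.98 ± 0.785 CPM (1.86 ± 0.18, adjusted p = 1.69e-07). ZEB1, a repressor of epithelial genes, was not called (-0.29, 95% interval -0.54 to -0.04, adjusted p = 0.163), at 32.7 and 34.3 CPM against 38.4 and 43.5 CPM. With any 1 library left out 5 or 6 epithelial genes were called higher.

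Among the epithelial members BSPRY, the gene of a B-box and SPRY domain protein, stood at 5.01 and 4.77 CPM after INTS13 depletion and 0.521 and 0.866 CPM after HDGF depletion, beside 1.55 ± 0.43 CPM in control. The groups did not overlap, with a difference of 2.81 ± 0.31 (adjusted p = 7.61e-07). Its promoter is shown because it was chosen for holding an E-box pair. For KRT8, also called, the window searched (chr12:52926420-52926719) lay within the gene (chr12:52897187-52949954) and held no match. Only 1 window per gene was searched, so any other start site was not covered. The letters CACCTG form the E-box that ZEB and SNAIL repressors are known to bind, and they were searched on both strands, so that CAGGTG counts as a match; longer motifs were not searched. Capitals mark the matches in the RefSeq window of BSPRY on GRCh38.p14, which runs from 250 bases before to 50 bases after the start site.
BSPRY promoter, chr9:113349291-113349590, plus strand: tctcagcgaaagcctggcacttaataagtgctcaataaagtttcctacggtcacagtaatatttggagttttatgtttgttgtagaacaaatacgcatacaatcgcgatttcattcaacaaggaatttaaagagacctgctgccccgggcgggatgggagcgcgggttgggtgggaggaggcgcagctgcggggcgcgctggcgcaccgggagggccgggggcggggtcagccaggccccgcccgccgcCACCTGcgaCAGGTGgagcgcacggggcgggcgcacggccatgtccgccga
The matches start 1 base before and at base 9 of the transcript. Among RefSeq promoters, 7 of 13 tested epithelial genes with an entry held CACCTG (53.8%), as did 2 of the 4 called ones. The share was 17.9% of 11000 tested protein-coding genes and 20.6% of 27305 promoters of the same length. CACCTG was also in 6 of 18 cholesterol (33.3%), 6 of 28 p53 target (21.4%), 7 of 34 mitosis (20.6%) and 3 of 33 DNA replication promoters (9.09%). Whether these letters relate to the differences in level was not tested.

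HDGF depletion gave lower levels of some junction, surface and endosome genes for which INTS13-depleted cells stayed nearer to control. GJA1 (chr6:121435595-121449727), which encodes the gap junction protein connexin 43, stood at 59.8 and 58.2 CPM after INTS13 depletion, 23.1 and 26.1 CPM after HDGF depletion and 86.5 ± 5.35 CPM in control. Both were below control, the HDGF libraries further, and the direct difference was 1.26 ± 0.13 (adjusted p = 4.22e-07). IGDCC3, an immunoglobulin superfamily gene, stood at 17.9 and 15.5 CPM against 4.57 and 4.0 CPM, beside 16.4 ± 1.21 CPM in control (1.96 ± 0.23, adjusted p = 2.75e-06). SNX10, a sorting nexin gene of endosomes, stood at 17.6 and 16.6 CPM against 5.09 and 5.16 CPM, beside 14.5 ± 1.06 CPM (1.74 ± 0.16, adjusted p = 6.62e-08). For IGDCC3 and SNX10 the INTS13 libraries did not differ from control at the threshold (adjusted p = 0.954 and 0.255), while the HDGF libraries were lower (log2 -1.94 and -1.5). Of 30 mesenchymal and cell-matrix genes, 4 were higher and 4 lower after INTS13 depletion, beside 4.89% and 3.34% of all genes tested (median 0.29). GJA1 and ACTA2 were among the 4 higher, and the matricellular genes CCN1 and CCN2 among the 4 lower. With 1 library left out 1 to 3 were called higher and 0 to 3 lower.

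Some genes of mitosis were lower after INTS13 depletion by small amounts. Of 40 listed genes 9 were lower, 0 higher and 31 did not pass, 38 of 40 estimates were below 0, and the median was -0.26. ANLN, which encodes the cytokinetic ring protein anillin, stood at 165 and 171 CPM in INTS13-depleted and 271 and 283 CPM in HDGF-depleted libraries, beside 202 ± 17 CPM in control. The control lay between the depletions and the groups did not overlap (-0.72 ± 0.11, adjusted p = 6.41e-05). BIRC5, the gene of survivin, a subunit of the chromosomal passenger complex, stood at 193 and 183 CPM against 268 and 286 CPM (-0.56 ± 0.09, adjusted p = 0.000281), with control at 277 ± 4.12 CPM beside the HDGF libraries. BUB1, a spindle checkpoint kinase gene, stood at 150 and 162 CPM against 205 and 214 CPM (-0.43 ± 0.08, adjusted p = 0.00114). Without any 1 of the 4 libraries 5 mitosis genes were called lower. The count was 2 without the filter on low counts and 26 when only libraries numbered 3 and 4 were fitted. DNA replication genes had 4 of 37 lower, 0 higher and a median of -0.15, with the thymidine kinase gene TK1 at 64.6 and 59.7 CPM against 92.6 and 93.9 CPM (-0.58 ± 0.10, adjusted p = 0.000447). Without HDGF library 4 or INTS13 library 3 the count was 1.

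The promoters of mitosis genes share a short element, so 3 of the called genes are shown, ANLN and 2 more, CDC20 and KIF23, which were chosen after their values were seen. TTTGAA is the core of the cell cycle genes homology region, which the MuvB complex is known to bind in promoters of genes expressed in late cell cycle phases. It was searched on both strands, so that TTCAAA counts as a match. Variants of these letters were not searched, so a window without a match may still hold one. CDC20, an activator of the anaphase-promoting complex, had a mean of 150 CPM after INTS13 and 201 CPM after HDGF depletion (-0.42, adjusted p = 0.00818, a call kept only without HDGF library 4 when single libraries were left out), and KIF23, a kinesin gene of cytokinesis, 159 and 209 CPM (-0.39, adjusted p = 0.00119). Capitals mark the matches in the same RefSeq windows.
ANLN promoter, chr7:36389612-36389911, plus strand: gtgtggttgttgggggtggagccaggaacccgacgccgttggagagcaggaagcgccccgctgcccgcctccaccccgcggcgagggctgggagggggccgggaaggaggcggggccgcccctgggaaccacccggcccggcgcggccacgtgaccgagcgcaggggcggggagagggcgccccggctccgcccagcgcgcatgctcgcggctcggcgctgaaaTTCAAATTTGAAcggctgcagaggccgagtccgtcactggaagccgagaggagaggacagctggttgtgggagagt
CDC20 promoter, chr1:43358731-43359030, plus strand: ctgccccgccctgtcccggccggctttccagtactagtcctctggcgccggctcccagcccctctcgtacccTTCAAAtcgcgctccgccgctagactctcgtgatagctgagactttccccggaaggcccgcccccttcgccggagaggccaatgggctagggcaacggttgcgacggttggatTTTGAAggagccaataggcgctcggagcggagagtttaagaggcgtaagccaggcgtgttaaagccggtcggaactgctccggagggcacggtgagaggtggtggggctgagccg
KIF23 promoter, chr15:69414099-69414398, plus strand: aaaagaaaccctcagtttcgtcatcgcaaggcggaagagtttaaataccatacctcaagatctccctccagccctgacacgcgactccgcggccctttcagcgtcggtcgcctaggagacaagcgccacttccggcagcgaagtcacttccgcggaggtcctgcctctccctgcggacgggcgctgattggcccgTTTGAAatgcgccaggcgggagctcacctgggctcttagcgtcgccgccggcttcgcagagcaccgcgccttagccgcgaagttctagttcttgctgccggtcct
ANLN holds the element in both orientations side by side, starting 26 and 20 bases before the start site, and KIF23 holds it 55 bases before. TTTGAA was in 22 of 34 mitosis promoters with an entry (64.7%) and in 6 of the 8 called ones (75.0%), against 9.64% of 11000 tested protein-coding genes and 15.4% of all 27305 promoters. It was in 1 of 33 DNA replication promoters (3.03%) and 1 of 28 p53 target promoters (3.57%). The called gene BUB1 had an entry without these letters in its window, and BIRC5, CDH1, EPCAM and MARVELD3 had no entry.

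Regulators of the G1 phase differed in both directions, with 4 of 21 higher after INTS13 depletion, 1 lower and 16 not passing (median -0.14). E2F1, a transcription factor gene of S phase entry, stood at 87.6 and 89.8 CPM in INTS13-depleted and 49.1 and 53.8 CPM in HDGF-depleted libraries, with control between at 74.9 ± 1.97 CPM (0.79 ± 0.09, adjusted p = 2.31e-06). Against the shared controls E2F1 was higher after INTS13 depletion (log2 0.24, adjusted p = 0.0377) and lower after HDGF depletion (-0.54, adjusted p = 0.00011). CCND3, which encodes cyclin D3, stood at 27.1 and 25.8 CPM against 51.3 and 49.3 CPM and was lower after INTS13 depletion (-0.93 ± 0.12, adjusted p = 8.95e-06). CCND2, which encodes cyclin D2, stood close in the groups, at 331 and 328 CPM against 306 and 298 CPM, and above control at 144 ± 4.47 CPM in each. Its difference of 0.12 had a 95% interval of -0.33 to 0.57 (adjusted p = 0.827).

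**Figure D3:**
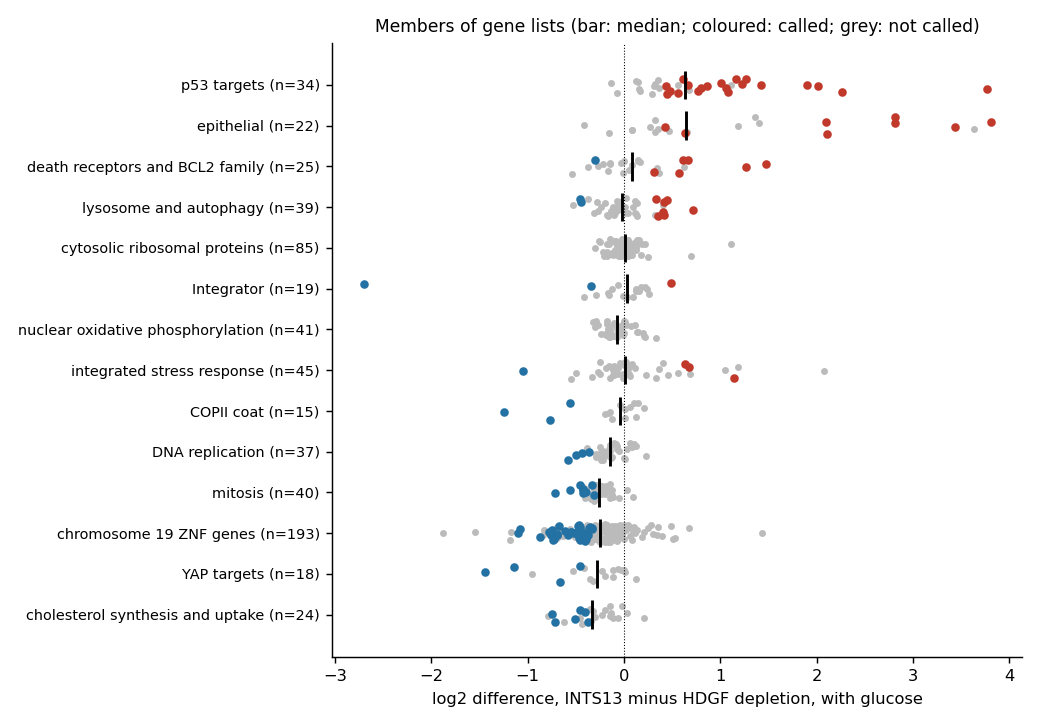
Log2 difference between INTS13 and HDGF depletion with glucose (horizontal) for the tested members of 14 gene lists, 1 point per gene, red where called higher after INTS13 depletion, blue where called lower, grey where not called, with the median as a bar. Medians run from 0.64 for p53 targets and epithelial genes to -0.33 for cholesterol genes, and ribosomal protein genes lie around 0.01.

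The COPII coat carries cargo out of the endoplasmic reticulum. Of its 15 listed genes 3 were lower, beside 3.34% of all genes tested, 0 were higher and 12 did not pass (median -0.04). SEC23A (chr14:39031919-39109646), a coat subunit gene, stood at 84.8 and 85.4 CPM in INTS13-depleted and 200.0 and 204 CPM in HDGF-depleted libraries, beside 244 ± 11 CPM in control. The groups were far apart, with a difference of -1.25 ± 0.08 (adjusted p = 7.46e-11). Its paralog SEC23B stood at 67.5 and 73.0 CPM against 102 and 106 CPM (-0.56 ± 0.08, adjusted p = 7.24e-05), and SAR1A, the GTPase gene that starts coat assembly, at 114 and 120 CPM against 196 and 201 CPM (-0.77 ± 0.13, adjusted p = 0.000393). These 3 genes were called with each of the 4 libraries left out.

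Of 24 genes of cholesterol synthesis and uptake, 6 were lower, beside 3.34% of all genes tested, 0 were higher and 18 did not pass. The median was -0.33 and 22 estimates were below 0. MVD, a decarboxylase gene of the mevalonate branch, stood at 27.5 and 25.4 CPM against 43.1 and 44.2 CPM (-0.72 ± 0.15, adjusted p = 0.00254). TM7SF2, a sterol reductase gene, stood at 13.9 and 13.4 CPM against 24.0 and 22.1 CPM (-0.75 ± 0.10, adjusted p = 2.24e-05), and shares its strand and locus with VPS51. Neither MVD nor TM7SF2 overlapped between the groups, but with any 1 library left out only 2 of the 24 were called, and 14 when only libraries numbered 3 and 4 were fitted.

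SLC1A5 (chr19:46774883-46788594), the gene of a glutamine transporter, stood at 129 and 117 CPM in INTS13-depleted and 363 and 361 CPM in HDGF-depleted libraries, beside 396 ± 14.6 CPM in control. HDGF-depleted cells stayed near control and INTS13-depleted cells were 2.95-fold below HDGF-depleted cells, a difference of -1.56 ± 0.13 (adjusted p = 1.7e-08), while the other 20 amino acid transporter genes tested were not called. Since the strand setting of the counting is not stated, counts of SLC1A5 may include reads of the opposite strand. REEP3, a gene of an endoplasmic reticulum shaping protein, stood at 33.2 and 34.3 CPM against 83.5 and 78.6 CPM (-1.26 ± 0.13, adjusted p = 2.06e-07), FBH1, a DNA helicase gene, at 52.6 and 52.6 CPM against 110.0 and 107 CPM (-1.05 ± 0.08, adjusted p = 5.64e-09), and GPR180 at 81.8 and 80.4 CPM against 173 and 171 CPM (-1.08 ± 0.11, adjusted p = 4.22e-07). FOXP2, a forkhead transcription factor gene, stood at 17.8 and 14.6 CPM against 32.7 and 37.3 CPM (-1.11 ± 0.15, adjusted p = 1.25e-05).

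In other genes the lower value after INTS13 depletion lay near control and HDGF depletion lay above it. MLH3, a mismatch repair gene, stood at 3.37 and 4.44 CPM in INTS13-depleted, 9.02 and 9.65 CPM in HDGF-depleted and 4.42 ± 0.541 CPM in control libraries, a direct difference of -1.26 ± 0.16 (adjusted p = 7.46e-06). ZNF367, a zinc finger gene on chromosome 9, stood at 32.0 and 37.9 CPM, 66.8 and 81.1 CPM and 40.3 ± 8.07 CPM (-1.08 ± 0.18, adjusted p = 0.000253). Against the shared controls neither was called after INTS13 depletion (adjusted p = 0.474 and 0.455) and both were higher after HDGF depletion (log2 1.08 and 0.87).

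YAP target genes respond to the Hippo pathway. Of 18 tested, 4 were lower after INTS13 depletion, beside 3.34% of all genes tested, 0 were higher and 14 did not pass (median -0.28). CCN2, a matricellular growth factor gene, stood at 0.591 and 1.26 CPM against 2.37 and 2.6 CPM (-1.44 ± 0.31, adjusted p = 0.00327), with control at 1.19 ± 0.282 CPM near the INTS13 libraries. CCN1, its relative, stood at 3.27 and 4.08 CPM against 6.9 and 9.24 CPM (-1.14 ± 0.24, adjusted p = 0.00316), with control at 7.02 ± 1.27 CPM near the HDGF libraries. AMOTL2, an angiomotin family gene, was below control in each group, at 11.7 and 10.7 CPM and at 16.2 and 19.3 CPM beside 27.8 ± 1.95 CPM (-0.66 ± 0.16, adjusted p = 0.00967). These calls rest on all 4 libraries: 3, 1, 0 and 2 YAP targets were called lower without HDGF library 3, HDGF library 4, INTS13 library 3 and INTS13 library 4.

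FAM83B, a gene of the FAM83 family, stood at 11.2 and 9.99 CPM after INTS13 and 2.93 and 2.81 CPM after HDGF depletion, with control between at 5.49 ± 0.613 CPM (1.88 ± 0.18, adjusted p = 1.21e-07). SH2D3A, an SH2 domain adaptor gene, stood at 8.34 and 7.34 CPM against 1.88 and 2.39 CPM (1.87 ± 0.24, adjusted p = 1.09e-05), and CA11, a carbonic anhydrase-related gene, at 16 and 15.1 CPM against 4.17 and 4.79 CPM (1.80 ± 0.21, adjusted p = 1.78e-06). In SH2D3A the HDGF libraries lay beside control (2.12 ± 0.176 CPM) and in CA11 below it (6.94 ± 1.55 CPM). BMPR2, a receptor gene of bone morphogenetic proteins, was lower after INTS13 depletion at 39.1 and 34.9 CPM against 62.3 and 61.0 CPM (-0.74 ± 0.13, adjusted p = 0.000728), and BMPER, a gene of a secreted regulator of the same ligands, at 3.27 and 2.85 CPM against 6.13 and 6.48 CPM (-1.04 ± 0.19, adjusted p = 0.000699). Of 15 Wnt target genes 3 were higher and 1 lower (median 0.25), with the stem cell receptor gene LGR5 at 7.48 and 7.22 CPM against 4.29 and 3.67 CPM (0.88 ± 0.22, adjusted p = 0.0128), and with 1 library left out 0 or 1 were called higher. Of 16 Notch and Hedgehog genes the ligand gene JAG1 was higher (0.82 ± 0.21, adjusted p = 0.0135) and the targets HES4 (-0.95 ± 0.24, adjusted p = 0.0131) and NRARP (-0.49 ± 0.15, adjusted p = 0.0407) were lower, with neither target called with any 1 library left out and JAG1 called only without HDGF library 3.

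Lysosome and autophagy genes had 7 of 39 members higher after INTS13 depletion, 2 lower and 30 not passing (median -0.02). The shares over all genes tested were 4.89% higher and 3.34% lower. ATP6V1H, a subunit gene of the vacuolar proton pump, stood at 75.1 and 76.6 CPM against 56.1 and 57.2 CPM (0.42 ± 0.08, adjusted p = 0.00127). GLB1, the lysosomal beta-galactosidase gene, stood at 88.7 and 89.6 CPM against 67.0 and 68.3 CPM (0.40 ± 0.09, adjusted p = 0.00345), and HEXA, a hexosaminidase gene, at 73.2 and 80.3 CPM against 56.7 and 58.3 CPM (0.42 ± 0.09, adjusted p = 0.00549). Each differed by less than 1.5-fold without overlap between groups. With 1 library left out 2 to 4 of these genes were called higher, and without the filter on low counts 1 was. The lower members numbered 7 beside 8 higher when only libraries numbered 3 and 4 were fitted, 6 beside 8 with a replicate block, and 0 or 1 with 1 library left out.

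Some numbered zinc finger (ZNF) genes of chromosome 19 were lower after INTS13 than after HDGF depletion. Many of these genes lie in clusters of paralogs and encode repressors of transposable elements. Of 193 tested, 35 were lower (18.1%), 0 were higher and 158 did not pass, 167 estimates were below 0, and the median was -0.25. Of 214 ZNF genes on other chromosomes 8 were higher and 7 lower (median -0.02), and of the 776 other protein-coding genes of chromosome 19, 35 were higher and 35 lower (median -0.06). ZNF776 stood at 17.8 and 19.5 CPM in INTS13-depleted, 30.8 and 32.6 CPM in HDGF-depleted and 22.4 ± 1.81 CPM in control libraries (-0.76 ± 0.12, adjusted p = 0.000103). ZNF419 stood at 7.34 and 8.11 CPM, 12.7 and 13.2 CPM and 9.65 ± 1.18 CPM (-0.74 ± 0.12, adjusted p = 0.000105), and in both genes the control lay between. ZNF875 stood at 9.07 and 9.99 CPM against 15.7 and 14.7 CPM, with control near HDGF at 14.3 ± 0.733 CPM (-0.67 ± 0.11, adjusted p = 0.000201).

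The called chromosome 19 ZNF genes numbered 10 without INTS13 library 3 and 14 without each of the others, 17 without the filter on low counts and 59 when only libraries numbered 3 and 4 were fitted, and the set as a whole had lower abundance than ZNF genes elsewhere, with medians of 3.44 and 4.61 log2 CPM. Relative to the shared controls the medians of the 193 genes were -0.05 after INTS13 depletion, with 4 higher and 8 lower, and 0.21 after HDGF depletion, with 31 higher and 0 lower. In starved cells, whose libraries are separate, the median of INTS13 minus HDGF depletion was -0.18, 171 of 193 estimates were below 0 and 4 genes were called lower. Counts of paralogs with near-identical stretches may be shared among them.

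**Figure D4:**
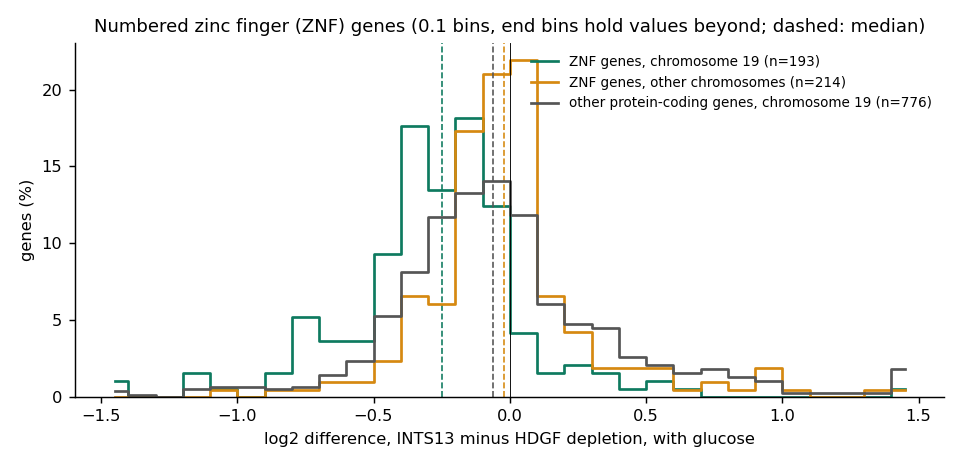
Share of genes in percent (vertical) by log2 difference between INTS13 and HDGF depletion with glucose (horizontal) for numbered ZNF genes on chromosome 19 (n = 193), on other chromosomes (n = 214) and other protein-coding genes of chromosome 19 (n = 776), with medians dashed at -0.25, -0.02 and -0.06. The distribution of chromosome 19 ZNF genes is shifted below 0.

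Most Integrator subunit genes other than the target did not pass the test. Of 19 tested, INTS6L was higher after INTS13 depletion, INTS13 and INTS8 were lower and 16 did not pass, with a median of 0.03. Over all genes tested 4.89% were higher and 3.34% lower, and INTS13, as the siPOOL target, was lower by design. INTS6L, a paralog of INTS6, stood at 46.6 and 50.2 CPM in INTS13-depleted, 32.9 and 36.2 CPM in HDGF-depleted and 27.8 ± 1.3 CPM in control libraries (0.49 ± 0.13, adjusted p = 0.0164). INTS8 stood at 89.1 and 94.4 CPM against 115 and 117 CPM (-0.34 ± 0.08, adjusted p = 0.011) and overlaps CCNE2. INTS6L lost its call without any 1 of the 4 libraries, and INTS8 lost its call without INTS13 library 3, without either HDGF library and without the filter on low counts. INTS14, a partner of INTS13 in its module, had a difference of 0.16 with a 95% interval of -0.06 to 0.37, and the catalytic subunit gene INTS11 had 0.03 with an interval of -0.17 to 0.24. By edgeR 0 of 30 small nuclear RNAs were called (median -0.30), 0 had an unadjusted p under 0.05, DESeq2 called 0, and 2 were called lower without the filter on low counts. Total RNA counts cannot separate their mature from unprocessed forms.

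In the HDGF family HDGFL3 was lower in INTS13-depleted than in HDGF-depleted cells. It stood at 87.9 and 87.0 CPM against 113 and 116 CPM, with control at 86.1 ± 1.36 CPM level with the INTS13 libraries (-0.39 ± 0.10, adjusted p = 0.00985). HDGFL2 stood at 127 and 120 CPM against 161 and 161 CPM and was not called (-0.39, 95% interval -0.74 to -0.04, adjusted p = 0.183), and PSIP1, the gene of the chromatin tether LEDGF, had a difference of 0.00 with an interval of -0.18 to 0.18. The HDGFL3 call was lost without HDGF library 4, without either INTS13 library and without the filter on low counts. Of the 7 genes of the other proteins targeted in the series edgeR called 0 and DESeq2 called 0, with 2 at an unadjusted p under 0.05, and their estimates ran from -0.36 for ZNF608 to 0.30 for ZMYND8; with libraries numbered 3 and 4 alone 2 were called higher and 1 lower. Among 28 pausing and termination genes 1 was higher and 4 lower (median -0.09), including the cap-binding subunit gene NCBP2 (-0.46 ± 0.08, adjusted p = 0.000803) and the exonuclease gene XRN2 (-0.36 ± 0.08, adjusted p = 0.0052), and with 1 library left out 1 or 2 were called lower.

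Of 3284 long noncoding genes tested 105 were higher (3.2%) and 32 lower (0.974%) after INTS13 depletion, both smaller shares than the 4.89% and 3.34% of all genes tested. Of 44 annotated as bidirectional promoter transcripts, which start next to a coding gene on the other strand, 6 were higher (13.6%), 0 lower and 38 did not pass, and 36 estimates were above 0 (median 0.34), whereas the median of all genes tested was 0.00. TYMSOS, which starts beside TYMS, stood at 5.28 and 4.12 CPM against 1.68 and 2.06 CPM, beside 1.90 ± 0.504 CPM in control (1.33 ± 0.31, adjusted p = 0.00649). Chosen after their values were seen, KDM7A-DT had a difference of 0.94 ± 0.17 (adjusted p = 0.00086) and INKA2-AS1 of 1.14 ± 0.25 (adjusted p = 0.00421). Without HDGF library 3 or 4 the number of bidirectional transcripts called was 4 or 2, and without INTS13 library 3 or 4 it was 1 or 5. In starved cells the median of the 44 was 0.17 and 28 estimates were above 0. FENDRR, a long noncoding RNA gene, stood at 15.8 and 12.1 CPM against 5.49 and 4.7 CPM, with control between at 8.46 ± 1.62 CPM (1.46 ± 0.20, adjusted p = 2e-05). LINC01876 was lower, at 2.92 and 2.94 CPM against 6.17 and 7.43 CPM (-1.21 ± 0.26, adjusted p = 0.00308). Without a stated strand setting, reads of such transcripts and of the opposite strand cannot be told apart.

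By edgeR, cytosolic ribosomal protein genes had 0 of 85 called (median 0.01), nuclear oxidative phosphorylation genes 0 of 41 (median -0.07), and heat shock genes 0 of 20 (median -0.17), where 2, 0 and 4 had an unadjusted p under 0.05 and DESeq2 called 0, 0 and 3. Of 45 genes of the integrated stress response 3 were higher, among them the transcription factor genes ATF5 (0.63 ± 0.15, adjusted p = 0.00772) and JDP2 (1.14 ± 0.25, adjusted p = 0.00459), and 1 was lower, the phosphatase subunit gene PPP1R15A (-1.05 ± 0.26, adjusted p = 0.0093). PPP1R15A varied within groups, at 15.2 and 23.3 CPM against 31.6 and 48.1 CPM, and with 1 library left out 0 to 2 genes of the response were called higher and 0 or 1 lower. Of 38 HOX genes 4 were higher and 3 lower, beside 4.89% and 3.34% of all genes tested, with HOXA5 at 58.8 and 56.2 CPM against 93.7 and 81.1 CPM (-0.60 ± 0.10, adjusted p = 0.000253) and HOXC11 at 14.5 and 16.8 CPM against 9.74 and 10.4 CPM (0.63 ± 0.13, adjusted p = 0.00199), and with 1 library left out 1 or 2 were called higher and 2 or 3 lower. Of 29 endoplasmic reticulum chaperone and quality control genes 2 were lower, the lectin chaperone gene CANX (-0.51 ± 0.11, adjusted p = 0.00481) and EDEM1, which acts in degradation of misfolded glycoproteins (-0.36 ± 0.09, adjusted p = 0.0108). Of 42 replication-dependent histone genes H3C13 was lower (-0.66 ± 0.19, adjusted p = 0.0236). The counts for stress response, chaperone and histone genes likewise stand beside 4.89% higher and 3.34% lower over all genes tested. The calls of CANX, EDEM1 and H3C13 were lost with single libraries left out.

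Some named genes were not called, and their intervals show how large a difference remains possible. FSCN1, which encodes the actin bundler fascin, stood at 25.3 and 19 CPM against 17.6 and 17.1 CPM, with control at 44.3 ± 13 CPM, and its difference of 0.35 had a 95% interval of -0.20 to 0.91. NAB2, a corepressor gene of EGR factors, stood at 10.2 and 11 CPM against 10.6 and 9.65 CPM with an interval of -0.22 to 0.34, and overlaps STAT6. TXNIP, a glucose-responsive arrestin gene, stood at 30.9 and 30.4 CPM against 24.3 and 24.2 CPM (0.34, interval -0.14 to 0.81), ARRDC4, its relative, at 24.0 and 24.3 CPM against 27.0 and 29.4 CPM (-0.23, interval -0.51 to 0.06), and SLC2A3, a glucose transporter gene, at 3.58 and 3.59 CPM against 3.49 and 3.09 CPM (0.12, interval -0.39 to 0.63). NAB2, ARRDC4, SLC2A3, FSCN1 and TXNIP were thus bounded within 2-fold, while EGR1, an immediate early gene near 2 CPM, was not (interval -2.03 to 1.54).

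The same difference was measured in starved cells, in libraries that share none with those with glucose. There 380 genes were called (1.97%), 255 higher (1.32%) and 125 lower (0.649%) after INTS13 depletion, and 2420 had an unadjusted p under 0.05. Of the 1586 genes called with glucose, 1548 (97.6%) had the same sign without glucose, against 71.9% of all genes tested. Genes called in the same direction in both media numbered 327, which is 20.6% of the calls with glucose and 86.1% of those without, and 0 were called in opposite directions. Across 19275 genes the differences correlated with r = 0.483, as a description over genes that share libraries within each medium. The number of calls without glucose was 131 and 159 without starved INTS13 library 3 and 4, and 112 and 125 without starved HDGF library 3 and 4. Of 34 p53 targets 13 were higher and 0 lower (median 0.58), of 22 epithelial genes 5 were higher, and of 40 mitosis genes 1 was lower (median -0.10). SEC23A (-0.79 ± 0.08, adjusted p = 8.64e-07), MDM2 (0.92 ± 0.11, adjusted p = 1.22e-05), EPCAM (2.97 ± 0.39, adjusted p = 4.56e-05) and GJA1 (1.02 ± 0.13, adjusted p = 4.49e-05) were called in the direction they had with glucose.

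**Figure D5:**
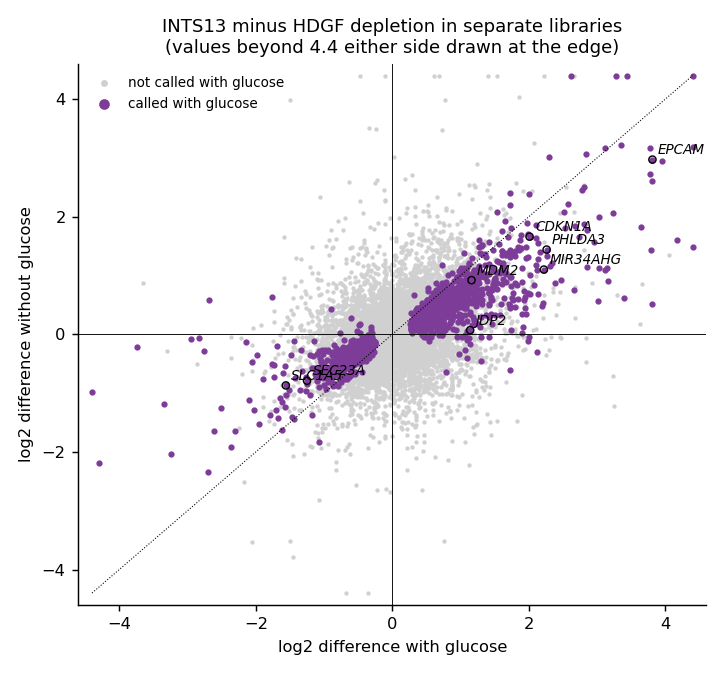
Log2 difference between INTS13 and HDGF depletion without glucose (vertical) against that with glucose (horizontal), 1 point per gene tested, with the 1586 genes called with glucose in purple and the line of equal difference dotted. Of the purple points 1548 have the same sign on both axes, and many lie nearer to 0 on the vertical axis. Values beyond the axes are drawn at the edge.

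Among genes called with glucose the median of the starved difference over the glucose difference was 0.609. Among the 380 genes called without glucose the median of the glucose difference over the starved difference was 1.15. Both medians were taken over signed ratios, and each set of genes was chosen by 1 of the values in its ratio. The signs matched between media for 1548 of the 1586 genes called with glucose and 376 of the 380 called without. The interaction, starved minus with glucose, was called for 0 genes by edgeR and 0 by DESeq2, and 546 genes had an unadjusted p under 0.05. Fitted with only libraries numbered 3 and 4, the interaction was called for 3 genes. SLC1A5 stood at 204 and 234 CPM in starved INTS13-depleted and 428 and 370 CPM in starved HDGF-depleted cells, against 129 and 117 and 363 and 361 CPM with glucose, and its interaction was 0.70 ± 0.11 in that fit (adjusted p = 0.0144) and 0.69 ± 0.18 with all libraries (adjusted p = 1.0). MIR34AHG stood at 41.2 and 37.7 against 18.8 and 17.9 CPM when starved, with an interaction of -1.11 ± 0.17 in that fit (adjusted p = 0.0144). PCLO, a presynaptic scaffold gene named because of this call, stood at 34.9 and 35.4 against 21.6 and 20.9 CPM with glucose and at 36.4 and 36.7 against 36.8 and 36.9 CPM when starved (-0.73 ± 0.12, adjusted p = 0.0182).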

How the data were processed

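Total RNA of HEK293T cells was sequenced, and the authors deposited whole-number counts per gene for 35 libraries, described as taken before duplicate removal. FastQC, cutadapt, STAR and the hg38 build are named in the submitters' processing notes, while the counting tool, annotation release and strand setting are not given in the sources used here. Gene lengths and positions in base pairs were also deposited, per the file headers. Of 60665 gene identifiers 58478 (96.4%) matched GENCODE release 29, which gave the gene biotypes. The 37 mitochondrial genes had 0 counts.

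Libraries were grouped by label into 15 groups. Genes passing filterByExpr (19275, minimum count 10) were scaled by TMM and fitted with edgeR 4.0.16 (R 4.3.3), using the quasi-likelihood test on 15 group means with no block (20 residual degrees of freedom), so that groups of 2 shared the spread of all groups. INTS13 minus HDGF with glucose, the same in starved libraries and their difference were contrasts of this fit, tested two-sided and adjusted by Benjamini-Hochberg over all genes, and called under 0.05. Intervals are 95%. CPM are TMM-scaled. Differences from control share the same 4 control libraries and their HDGF or INTS13 libraries with the direct contrast, so they are given as values side by side. Alternatives were DESeq2 1.42.0, its size factors, no filter, a replicate block, libraries numbered 3 and 4 alone, the libraries of the contrast alone, and leaving out each library. The fits of libraries numbered 3 and 4 alone did not include the ZMYND8 siPOOL libraries or their own controls. The code was tested on simulated data.

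The members, gene lists and named genes were chosen with earlier results of these data known. Named were INTS13 and HDGF; the 12 protein-coding genes called with the greatest difference in each direction (mean of at least 2 log2 CPM, groups not overlapping); up to 3 called members of each list with the lowest p; all Integrator, HDGF family and partner genes; the 4 largest starved calls; the 4 largest noncoding calls (mean of at least 1 log2 CPM); and 15 genes named in advance from those results. Not each of these is described. Pseudogenes were dropped from the small nuclear RNA list by their symbols after the data were seen. ZNF genes are those whose symbol is ZNF and a number. Promoters are from RefSeq on GRCh38.p14. Starved ZMYND8 libraries were not analysed here. Results for a few individual genes are not reported here.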

Additional observations from a re-analysis of the deposited data

Results flagged for a closer look

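Among the 128 named genes, 8 (6.25%) had 1 of the 4 control libraries with glucose apart from the other 3 by Dixon's criterion, and chance flags about 1 in 20 such groups. The control levels do not enter the direct difference, though they inform its spread. Control 3a stood apart for FSCN1 at 63.6 CPM (others 34.9 to 39.5), INTS1 at 178 CPM (142 to 145) and JDP2 at 5.9 CPM (4.27 to 4.52). Control 4b stood apart for SLC1A5 at 375 CPM (401 to 406), INTS3 at 151 CPM (139 to 140), INTS5 at 41.4 CPM (43.8 to 43.9) and TNFRSF10B at 48.8 CPM (53.3 to 53.9). Control 4a stood apart for INTS6L at 29.8 CPM (27.1 to 27.3).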

How the results depend on the processing

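With glucose, 1586 genes were called. The number was 4322 with libraries numbered 3 and 4 alone, 4909 with only the libraries of the contrast, and 596 to 765 with 1 of the 4 libraries left out, where the lone library is assumed to vary like the other groups. For starved cells 380 genes became 1818, 2132 and 112 to 159. The interaction had 0 calls, 3 with libraries numbered 3 and 4 alone and 5 with only the libraries of the contrast. The cause of the differences between fits was not tested. DESeq2 (1881, 531 and 0), its size factors (1599, 377 and 0) and no filter (1365, 358 and 0) stayed within 1.5 times. Of the 1586 calls with glucose, DESeq2 shared 1529 (96.4%) and its size factors 1560 (98.4%). The fit without the filter shared only 1027 (64.8%). Whether the replicate numbers pair the libraries was not settled. The deviations of number 3 from number 4 correlated above 0.1 in 6 of 21 pairs of groups (median r 0.0254). INTS13 with HDGF was among the 6 with r = 0.195, while their starved groups had r = -0.209. With a replicate block 3072, 1016 and 0 genes were called, and 4208, 1711 and 3 with libraries numbered 3 and 4 alone and the replicate block. None of the 96 named genes called with glucose changed direction under these alternatives. Of these 54, and of all 1586 calls 385, were called with each of the 4 libraries left out, and 79 of the 96 were called without the filter. The median of all genes stayed between -0.004 and 0.007 in these fits. At this depth and number of libraries 5786 uncalled genes were not bounded within 2-fold.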
